A study of Mus musculus with 12 samples.

Results

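Lipolysis, the release of fatty acids and glycerol from stored triglyceride, is described here through 9 genes, chosen by name from the 54532 genes of the deposited count table. They are the lipases Pnpla2, Lipe and Mgll with the coactivator Abhd5, the receptor Adrb3, the cyclic nucleotide genes Pde3b and Prkar2b, the glycerol channel Aqp7 and the natriuretic peptide receptor Npr1. All 9 had a row of their own in the table. The libraries came from inguinal white fat and liver of male mice aged 52 weeks, fasted for 12 hours. The 4 groups of 3 libraries were KO fat, WT fat, KO liver and WT liver, where KO stands for a global deletion labelled as covering miR-322, miR-503 and miR-351, and WT for wild type. The labels name no strain or deletion method and no animal behind each library, so each p-value measures the spread between these samples, which may be technical.

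In an adipocyte, triglyceride is broken down stepwise on the surface of the lipid droplet. Pnpla2 (ATGL) removes the first fatty acid with the help of Abhd5 (CGI-58), Lipe (hormone-sensitive lipase) the next, and Mgll (monoacylglycerol lipase) the last, and the freed glycerol leaves through the channel Aqp7. Noradrenaline starts the process in fasting: the β3-adrenergic receptor, encoded by Adrb3, raises cAMP, which releases the catalytic subunits of protein kinase A from regulatory subunits such as RIIβ, encoded by Prkar2b. Pde3b degrades cAMP and is the enzyme through which insulin restrains lipolysis, whereas Npr1 binds atrial natriuretic peptide and makes cGMP.

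In GRCm38, the build of the deposited coordinates, Pnpla2 (ENSMUSG00000025509) lies at chr7:141455198-141460743 on the plus strand, Lipe (ENSMUSG00000003123) at chr7:25379527-25398710 on the minus strand, and Mgll (ENSMUSG00000033174) at chr6:88724412-88828360 on the plus strand. Abhd5 (ENSMUSG00000032540) lies at chr9:122351608-122381524 on the plus strand, Adrb3 (ENSMUSG00000031489) at chr8:27225776-27250616 on the minus strand, and Pde3b (ENSMUSG00000030671) at chr7:114415281-114539251 on the plus strand. Prkar2b (ENSMUSG00000002997) lies at chr12:31958476-32061296, Aqp7 (ENSMUSG00000028427) at chr4:41033074-41048139 and Npr1 (ENSMUSG00000027931) at chr3:90450591-90465866, all on the minus strand.

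Libraries held 14531438 to 15971178 counts. Levels are given as CPM, counts scaled to a library's total, and as RPKM (CPM per kilobase of the deposited gene length) where genes are compared with each other. Mir322 and Mir503, genes of the deleted cluster, had 0 counts in all 6 KO libraries, against 37 and 48 counts over WT fat and 3 and 16 over WT liver. Mir351, also named in the deletion, had 146 counts over KO fat against 33 over WT fat, and 41 over KO liver against 9 over WT liver, which goes against the label for that gene. Libraries of this kind count longer RNA and do not measure the mature microRNA. The fat marker Adipoq had 1581 to 2366 CPM in fat libraries and 0 counts in 5 of 6 liver libraries, with 2 counts in KO liver replicate 3. The summed CPM of 6 hepatocyte markers reached 2564 in KO fat replicate 1 and 2466 in WT fat replicate 1, against 99.9 to 967.7 in the other 4 fat libraries and 97160 to 115900 in liver.

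The mature sequences of the 3 microRNAs are shown because the bases they pair with can be looked for in the 9 genes. Capitals mark the seed, bases 2 to 8 from the 5′ end (RefSeq, GRCm38.p6, minus strand of chromosome X). miR-322-5p and miR-503-5p share the first 6 bases of the seed.
miR-322-5p: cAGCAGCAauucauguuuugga
miR-503-5p: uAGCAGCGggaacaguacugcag
miR-351-5p: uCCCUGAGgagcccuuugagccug

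For each gene, the longest 3′ UTR in the annotation was searched for matches to these seeds, on the transcript strand. The reverse complement of the miR-322 seed, TGCTGCT, occurred in 3 of 9 genes, Lipe and Pde3b among them, against 20.3% of the 20993 genes with a UTR. That of miR-351, CTCAGGG, occurred in 2 of 9, Mgll and Aqp7, against 13.1%. That of miR-503, CGCTGCT, occurred in 0 of 9, against 3.92%. Matches in 4 genes are shown with 8 bases on either side, the match in capitals. A match is a stretch of letters, not a measured binding site.
Lipe: ctgccttcTGCTGCTgtgaccga
Pde3b: tgtcataaTGCTGCTttgctggg
Mgll: ccctcctgCTCAGGGaaccctgg
Aqp7: tttgggggCTCAGGGtgagtgat

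The 9 genes were first compared between the tissues. All 9 were higher in fat than in liver at an adjusted p under 0.05 (edgeR quasi-likelihood test, Benjamini-Hochberg) in KO mice, where 36.4% of the 16857 genes tested were called higher and 32% lower in fat. All 9 were also higher in WT mice, where 38.4% were called higher and 32.4% lower. Aqp7 and Prkar2b passed the filter on low counts only through fat, where they are high, so their calls carry no separate weight. In bulk tissue, fewer cells of a type and less RNA per cell cannot be told apart. The differences ran from 1.36 ± 0.17 for Pde3b in KO mice to 9.97 ± 0.33 for Prkar2b in KO mice on the log2 scale (SE), beside Aqp7, which had no read in liver.

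Aqp7 and Prkar2b, the glycerol channel and the RIIβ subunit, set the tissues apart most. Aqp7 had 258, 253 and 277 CPM in the 3 KO fat libraries and 274, 325 and 284 CPM in the 3 WT fat libraries, and 0 counts in all 6 liver libraries. Against a floor of 3 counts over a liver group, by library totals, it was at least 3914-fold higher in fat of KO mice. In WT mice it was at least 4422-fold higher by the same measure. These bounds cover counting error only. The scaling factors used for the other tissue differences, 1.29 to 1.35 in fat and 0.731 to 0.777 in liver libraries, would lower both. Prkar2b had 926.8, 840.9 and 913 CPM in KO fat and 716, 1097 and 1039 CPM in WT fat, against 0.33, 0.75 and 0.405 CPM in KO liver and 0.813, 0.451 and 0.406 CPM in WT liver. No fat library came near a liver library for either gene. The ratio of Prkar2b to Prkar1a, the widely expressed type I subunit, in RPKM averaged 3.65 ± 0.32 in KO fat and 3.54 ± 0.83 in WT fat, against 0.00437 ± 0.00208 in KO liver and 0.00488 ± 0.00185 in WT liver (SD, n = 3 each).

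The enzymes differed less between the tissues. The log2 difference, fat minus liver, was 5.59 ± 0.22 in KO and 5.05 ± 0.21 in WT mice for Lipe, and 3.46 ± 0.25 in KO and 3.27 ± 0.25 in WT mice for Pnpla2 (SE). The first lipase of the pathway exceeded the second in both tissues, and more so in liver: the ratio of Pnpla2 to Lipe in RPKM averaged 2.31 ± 0.11 in KO fat and 3.34 ± 0.96 in WT fat, against 10.3 ± 1.88 in KO liver and 11.7 ± 1.92 in WT liver (SD, n = 3 each). For Mgll the log2 difference was 2.06 ± 0.18 in KO and 1.50 ± 0.18 in WT mice, for Abhd5 1.57 ± 0.19 and 1.64 ± 0.19, and for Pde3b 1.36 ± 0.17 and 1.86 ± 0.17, in the same order of genotypes. Npr1 differed by 2.85 ± 0.16 in KO and 2.38 ± 0.16 in WT mice.

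Adrb3, the receptor through which β3-agonists act on rodent fat, differed by 5.98 ± 0.57 in KO and 6.20 ± 0.58 in WT mice. Its liver counts were few, 99 to 182 in KO liver and 66 to 133 in WT liver. The annotated antisense gene Gm45470 overlaps it, and without the strand setting of the counting their reads cannot be told apart. Gm45470 held 6.91% to 9.53% of the Adrb3 count in KO fat and 9.61% to 13.0% in WT fat, against 75.3% to 102% in KO liver and 66.2% to 81.95% in WT liver. The liver level of Adrb3 is therefore uncertain, and its part in the tissue difference was not tested. Antisense genes also overlap Mgll, Lipe, Abhd5 and Npr1. Gm26588 held 0.226% to 0.425% of the Mgll count in KO fat and 0.176% to 0.342% in WT fat, against 6.52% to 8.45% in KO liver and 5.36% to 9.51% in WT liver. 4732471J01Rik held 0.516% to 0.596% of the Lipe count in KO fat and 0.569% to 0.788% in WT fat, against 3.35% to 5.73% in KO liver and 4.93% to 9.50% in WT liver. Those over Abhd5 and Npr1 had 27 and 24 counts over all fat libraries and 2 and 6 over all liver libraries.

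**Figure D1:**
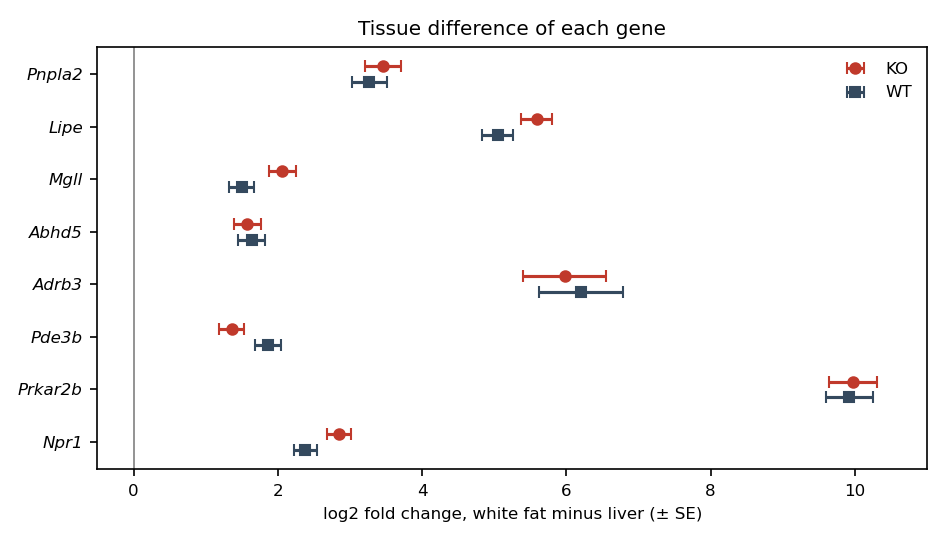
Log2 fold change of each gene, white fat minus liver, with SE, in KO (circles, upper) and WT mice (squares, lower), from the fit of 12 libraries; Aqp7 has no point because liver libraries had 0 counts of it. All 8 plotted genes lie right of 0, from 1.36 for Pde3b in KO mice to 9.97 for Prkar2b in KO mice.

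The size of these differences depended on the scaling. With library totals and no scaling factors, the median gene shifted by 0.83 in KO and 0.81 in WT mice on the log2 scale, and the calls were 10416 higher and 2696 lower in KO and 10301 higher and 2880 lower in WT mice, against 6131 higher and 5387 lower in KO and 6469 higher and 5461 lower in WT mice with scaling factors. With the trend of counts on GC content and transcript length taken out, the median shifted by -0.26 in KO and -0.28 in WT mice, with 5230 higher and 6836 lower calls in KO and 5429 higher and 6960 lower in WT mice. All 9 genes were called higher in fat under each of these settings.

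Promoter windows, 250 bases before to 50 bases after an annotated start (RefSeq, GRCm38.p6), were found for 7 of the 9 genes, 11 windows in all. For Aqp7, Prkar2b and Lipe, the genes with the largest tissue difference among those 7, a single window that held a motif match is shown. Both strands were searched for 4 motifs. CACGTG, the palindromic E-box core, occurred in 3 of 11 windows, of Lipe, Prkar2b and Mgll, against 7.15% of 32851 windows of all genes. AGGTCA, a core element bound by many nuclear receptors, occurred in 3 of 11, of Aqp7 (both of its windows, which overlap) and Abhd5, against 16.3%. TGACG, the core of the cAMP response element, occurred in 2 of 11, of Mgll and Abhd5, against 20.8%. TTGCNNAA, a C/EBP motif, occurred in 0 of 11, against 10.8%. No matches of different motifs overlapped. The other window of Prkar2b and that of Lipe, not shown, held no match to any of the 4 motifs. That of Aqp7 held 1 match, to AGGTCA. Capitals mark CACGTG or, in Aqp7, AGGTCA, which reads TGACCT on this strand.
Aqp7, chr4:41047913-41048212, minus strand: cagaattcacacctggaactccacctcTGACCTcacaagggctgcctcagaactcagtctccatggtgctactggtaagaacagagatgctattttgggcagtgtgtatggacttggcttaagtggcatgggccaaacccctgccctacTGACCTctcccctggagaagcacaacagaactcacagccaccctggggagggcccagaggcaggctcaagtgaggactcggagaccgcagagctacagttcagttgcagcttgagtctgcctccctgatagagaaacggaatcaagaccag
Prkar2b, chr12:32061228-32061527, minus strand: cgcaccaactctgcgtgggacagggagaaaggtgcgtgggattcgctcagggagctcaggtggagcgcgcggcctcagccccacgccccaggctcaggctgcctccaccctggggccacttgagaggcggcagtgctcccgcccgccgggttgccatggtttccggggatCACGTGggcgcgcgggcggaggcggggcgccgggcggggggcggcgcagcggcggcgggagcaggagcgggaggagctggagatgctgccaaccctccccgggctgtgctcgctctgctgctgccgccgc
Lipe, chr7:25395938-25396237, minus strand: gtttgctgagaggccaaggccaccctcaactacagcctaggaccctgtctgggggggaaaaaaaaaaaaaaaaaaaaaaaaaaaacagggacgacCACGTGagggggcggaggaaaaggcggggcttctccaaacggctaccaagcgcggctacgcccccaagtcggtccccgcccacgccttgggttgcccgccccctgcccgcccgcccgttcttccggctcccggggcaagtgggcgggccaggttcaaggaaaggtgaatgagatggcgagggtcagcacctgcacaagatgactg

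Within fat, the level per kilobase put Pnpla2 first. It averaged 806 ± 167 RPKM in KO fat and 901 ± 320 RPKM in WT fat (SD, n = 3 each), above every library of every other gene of the 9. Lipe, Mgll, Adrb3 and Prkar2b followed, at means of 244.7 to 349 RPKM in KO fat and 231 to 284 RPKM in WT fat, and each overlapped the next in rank within a genotype; in WT fat Adrb3 also overlapped Aqp7. Aqp7 averaged 93.0 RPKM in KO fat and 104 RPKM in WT fat, and Pde3b 61.5 RPKM in KO fat and 70.1 RPKM in WT fat. Npr1 and Abhd5 were lowest: 24.0 and 20.01 RPKM in KO fat, where their libraries did not overlap, and 21.7 and 22.5 RPKM in WT fat, where they did. In liver, Mgll and Pnpla2 led and overlapped, at 41.7 and 41.3 RPKM in KO liver and 57.5 and 53.2 RPKM in WT liver, followed by Pde3b at 13.5 RPKM in KO liver and 10.99 RPKM in WT liver. The other liver means were under 5 RPKM.

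The question of the deletion was first asked in fat. None of the 9 genes differed between KO and WT fat at an adjusted p under 0.05 (0 of 9), and of the 15919 genes tested in fat 0% did. At an unadjusted p under 0.05 the count was also 0 of 9, against 7.64% of all genes, and 0 of 9 had groups that did not overlap, against 14.9%. DESeq2 called 0 of 9 by adjusted p, against 0.27% of all genes, and 1, Lipe, at an unadjusted p under 0.05. Limma voom called 0 by either, against 0% of all genes by adjusted p. The share of all genes at an unadjusted p is not given for these tools. The median log2 fold change of the 9, KO minus WT, was -0.07, against -0.003 over all genes.

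Pnpla2 had 1981, 2977 and 2343 CPM in KO fat and 3655, 2785 and 1724 CPM in WT fat. Its WT libraries enclosed the whole range of the KO libraries, and the log2 fold change was -0.14 ± 0.29 (SE, adjusted p = 0.916). Lipe had 1643, 2428 and 2087 CPM in KO fat and 1616, 1772 and 1319 CPM in WT fat. Its log2 fold change was 0.41 ± 0.21 (adjusted p = 0.668), with KO replicate 1 inside the WT range, and was 0.25 without KO replicate 2 and 0.24 with the GC and length trend removed. Mgll had 1264, 1718 and 1755 CPM in KO fat and 1400, 1555 and 1369 CPM in WT fat, a log2 fold change of 0.15 ± 0.19 (adjusted p = 0.841). Abhd5, the coactivator, had 130, 131 and 96.5 CPM in KO fat and 163, 126 and 112 CPM in WT fat, with -0.14 ± 0.18 (adjusted p = 0.85). The groups overlapped for all 4.

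Adrb3 varied more than any other of the 9 genes within a genotype. It had 903, 1490 and 644 CPM in KO fat and 1109, 866 and 363 CPM in WT fat, and its fold change of 0.41 ± 0.48 (adjusted p = 0.842) stood within that spread. Adrb1, which encodes the β1-receptor, averaged 14.1 ± 5.79 CPM in KO fat and 9.51 ± 4.36 CPM in WT fat (SD, n = 3 each). Per kilobase, Adrb3 exceeded Adrb1 by 35.4, 69.9 and 62.3 times in the KO libraries and by 95.7, 44.8 and 46.95 times in the WT libraries, so the groups overlapped.

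Pde3b, Prkar2b, Aqp7 and Npr1 varied less within a genotype than Adrb3. Pde3b had 556, 665 and 460.5 CPM in KO fat and 738, 659 and 519 CPM in WT fat, a log2 fold change of -0.16 ± 0.20 (adjusted p = 0.841). Prkar2b, with the values given above, had -0.07 ± 0.19 (adjusted p = 0.934), and Aqp7 -0.14 ± 0.13 (adjusted p = 0.779). Npr1 had 107, 115 and 123 CPM in KO fat and 121, 100.1 and 90.6 CPM in WT fat, with 0.16 ± 0.14 (adjusted p = 0.764). By the SD of CPM, the KO fat libraries spread less than the WT fat libraries for Prkar2b, Npr1, Aqp7, Pde3b, Pnpla2 and Abhd5. They spread more for Lipe, Mgll and Adrb3. The difference in spread was not tested.

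Library make-up moved beside these values. WT fat replicate 3 was the lowest WT library for 7 of the 9 genes, all but Prkar2b and Aqp7; it also had the lowest summed CPM of 7 adipocyte markers, 13230, against 14890 to 17520 in KO fat and 15740 and 16000 in the other WT libraries, and the highest sum of 5 macrophage markers, 1990. The macrophage sum was also high in KO fat replicate 1, at 1838, against 664.8 to 967.6 CPM in the remaining fat libraries. The part of these markers in the values was not tested. Without the 2 fat libraries highest in Alb, replicate 1 of either genotype, the fold change of Pnpla2 was 0.25 (adjusted p = 0.638) and so turned its sign. Sums of the epithelial markers were 48.4 to 63.2 CPM in KO fat and 28.4 to 40.0 CPM in WT fat and did not overlap; their part was not tested either.

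**Figure D2:**
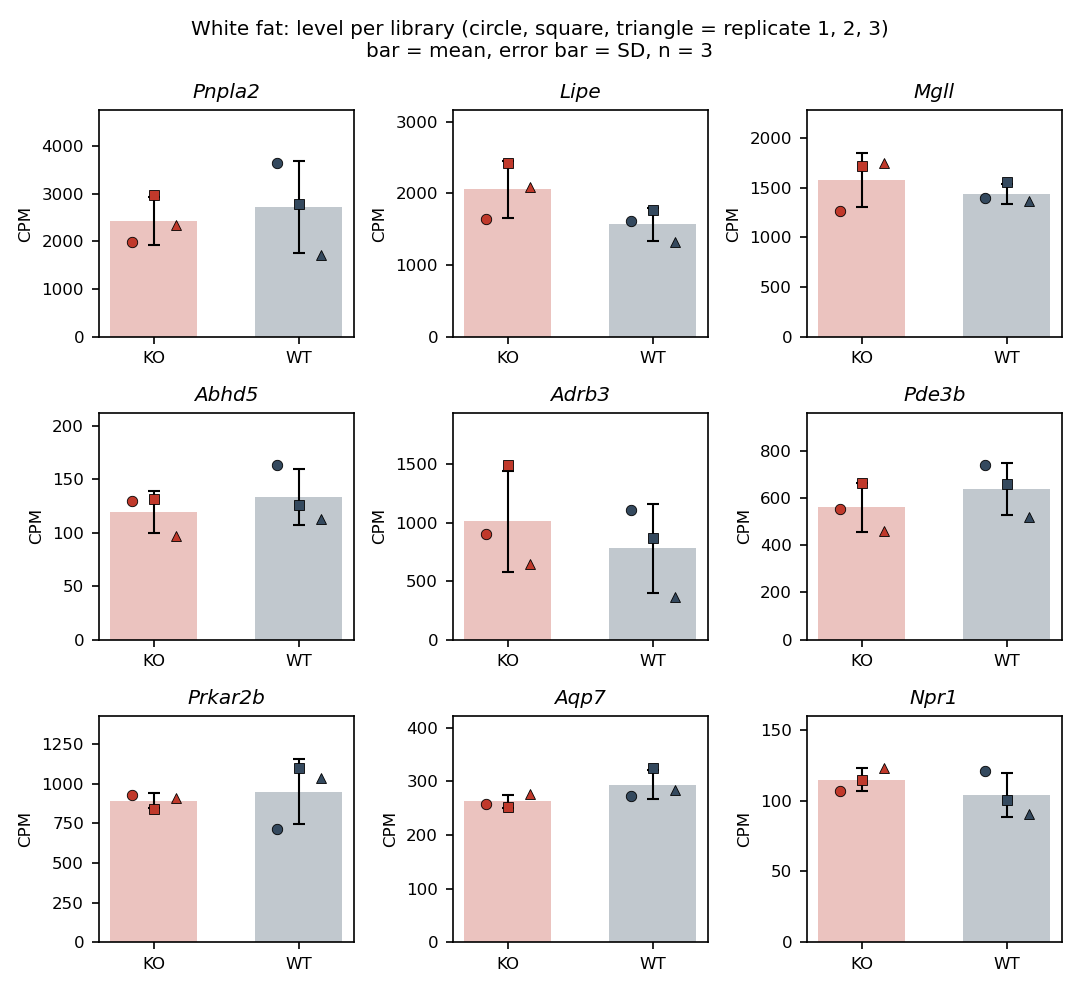
CPM of each gene in the 3 KO and 3 WT fat libraries (points), with the mean (bar) and SD (error bar); each panel has its own axis from 0. For every gene the KO and WT points overlap, as for Pnpla2, at 1981 to 2977 CPM in KO fat and 1724 to 3655 CPM in WT fat.

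Ratios of genes within a library, chosen after values were seen and so given without a test, set the enzymes against each other. Of 11 such ratios in fat, 1 had groups that did not overlap, which is not above the 14.9% of single genes in fat that did not overlap. That ratio, Pnpla2 to Lipe in RPKM, was 2.35, 2.39 and 2.19 in KO fat and 4.41, 3.06 and 2.55 in WT fat. Lipe to Plin1, the droplet protein that guards triglyceride until it is phosphorylated, was nearly constant, at 0.717, 0.698 and 0.688 in KO fat and 0.705, 0.7496 and 0.709 in WT fat. Plin1 itself had 1810, 2749 and 2396 CPM in KO fat and 1812, 1867 and 1469 CPM in WT fat, with a log2 fold change of 0.46 ± 0.21 (adjusted p = 0.654). Pnpla2 to its inhibitor G0s2 was 3.84, 5.75 and 4.04 in KO fat and 8.48, 5.58 and 4.02 in WT fat.

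**Figure D3:**
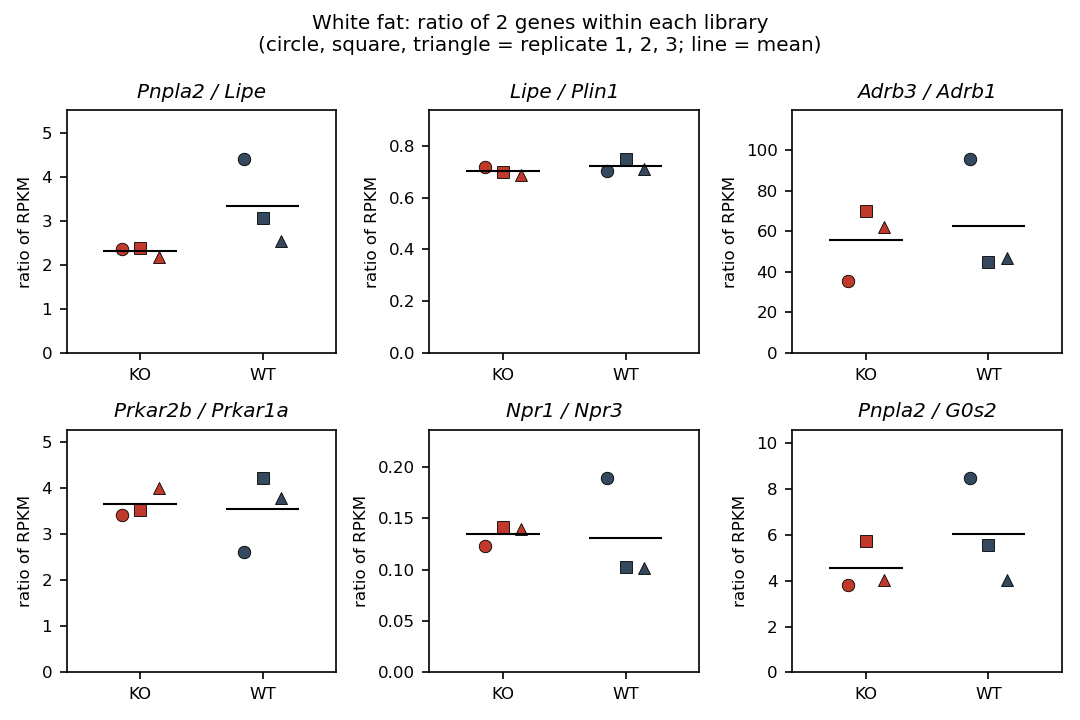
Ratio of the RPKM of 2 genes within each fat library, KO left and WT right, points being replicates and lines means; all axes start at 0. The Pnpla2 to Lipe ratio lies at 2.19 to 2.39 in KO fat, below the WT libraries at 2.55 to 4.41, whereas the other plotted ratios overlap.

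In liver the same question gave 0 of 7 genes at an adjusted p under 0.05, against 0.155% of the 13529 genes tested; Prkar2b and Aqp7 were below the filter on low counts there. At an unadjusted p under 0.05 there were 3 of 7, Pnpla2, Mgll and Pde3b, against 12.2% of all genes, and the same 3 genes had groups that did not overlap, against 18.8%. DESeq2 and limma voom also called 0 of 7 by adjusted p, against 1.03% and 0.0222% of all genes. At an unadjusted p under 0.05, limma voom had the same 3 genes, and DESeq2 had 4, these and Adrb3. The share of all genes at an unadjusted p is not given for these tools. The median log2 fold change of the 7 was -0.15, against -0.001 over all genes.

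Pnpla2, the lipase that hydrolyses hepatic triglyceride as well, had 118, 129 and 128 CPM in KO liver and 156, 154 and 172 CPM in WT liver. All KO libraries lay below all WT libraries, and the log2 fold change was -0.34 ± 0.10 (adjusted p = 0.229). Mgll had 206, 174 and 255 CPM in KO liver and 296, 266 and 314 CPM in WT liver, again without overlap, with -0.43 ± 0.14 (adjusted p = 0.266). Pde3b had 123, 112 and 133 CPM in KO liver and 92.2, 99.3 and 109 CPM in WT liver. Its KO libraries were the higher ones, with 0.32 ± 0.11 (adjusted p = 0.279). None of the 3 passed the adjusted threshold, except that without a filter on low counts Mgll was called at -0.43 (adjusted p = 0.00653). That setting called 1.51% of all genes tested, against 0.155% with the filter. With the GC and length trend removed, Pnpla2 had -0.17, Mgll -0.30 and Pde3b 0.21, and none of the 3 had an unadjusted p under 0.05 any more.

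The remaining liver genes had groups that overlapped. Lipe had 27.6, 20.9 and 23.6 CPM in KO liver and 28.8, 28.5 and 24.1 CPM in WT liver, with -0.15 ± 0.13 (adjusted p = 0.673). Abhd5 had 28.7, 21.1 and 17.8 CPM in KO liver and 26.1, 22.1 and 25.5 CPM in WT liver, with -0.10 ± 0.16 (adjusted p = 0.839). Npr1 had 11.4, 8.52 and 6.88 CPM in KO liver and 11.3, 11.7 and 11.2 CPM in WT liver, and its 3 WT libraries agreed closely while the KO libraries did not (-0.32 ± 0.19, adjusted p = 0.514). Adrb3, uncertain in liver as said, had 8.19, 12.4 and 6.68 CPM in KO liver and 9.01, 4.77 and 4.46 CPM in WT liver. Its log2 fold change was 0.61 ± 0.30 (adjusted p = 0.451). With the GC and length trend removed it was 0.73, with an unadjusted p of 0.0352 by the quasi-likelihood test (adjusted p = 0.581).

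The 6 hepatocyte markers summed to 97160 to 100600 CPM in KO liver and 110700 to 115900 CPM in WT liver, without overlap. Alb held most of both sums, at 76230 to 78160 CPM in KO liver and 87140 to 93140 CPM in WT liver; without it the sums overlapped, at 20930 to 22720 CPM in KO liver and 21550 to 24880 CPM in WT liver. The 7 adipocyte markers summed to 389.6 to 671 CPM in KO liver and 698.5 to 768 CPM in WT liver, of which Cebpa, a gene that hepatocytes also express, held 369 to 642 CPM in KO liver and 680 to 759 CPM in WT liver. Without Cebpa the sums overlapped, at 12.3 to 28.8 CPM in KO liver and 9.07 to 23.0 CPM in WT liver. The part of Alb and Cebpa in the liver values was not tested. The defining fat genes Adipoq and Plin1 had at most 2 counts and 1 count in any liver library.

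**Figure D4:**
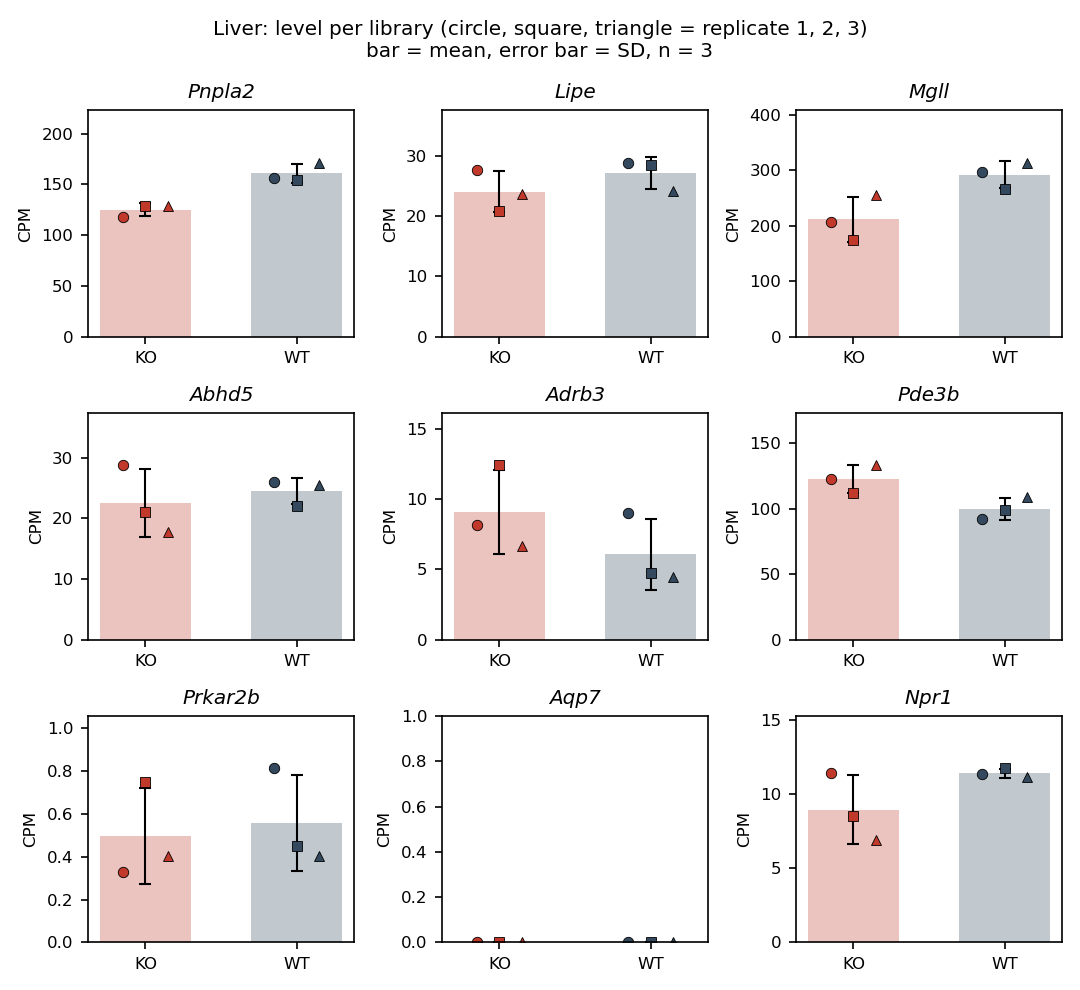
CPM of each gene in the 3 KO and 3 WT liver libraries (points), with the mean (bar) and SD (error bar); each panel has its own axis from 0. KO libraries of Pnpla2 (118 to 129 CPM) and Mgll (174 to 255 CPM) lie below WT libraries (154 to 172 and 266 to 314 CPM), those of Pde3b lie above, and Aqp7 is at 0 throughout.

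Whether the deletion acted differently in the 2 tissues was tested in the fit of 12 libraries. The difference of the genotype effects, fat minus liver, passed the adjusted threshold for 0 of 9 genes, against 0% of the 16857 genes tested, and had an unadjusted p under 0.05 for 1 of 9, Mgll, against 13.4%. DESeq2 and limma voom called 0 of 9 by adjusted p, against 1.18% and 0% of all genes. At an unadjusted p under 0.05, DESeq2 had 2, Lipe and Mgll, and limma voom 2, Mgll and Pde3b. The share of all genes at an unadjusted p is not given for these tools. Aqp7 is counted among the 9 each time, but with 0 counts in liver it had no genotype effect there. Its test was therefore empty. Mgll had 0.57 ± 0.25 (adjusted p = 0.347), Lipe 0.54 ± 0.25 (adjusted p = 0.377), Npr1 0.47 ± 0.22 (adjusted p = 0.377) and Pde3b -0.50 ± 0.24 (adjusted p = 0.382). Pnpla2 had 0.19 ± 0.32, Abhd5 -0.07 ± 0.26, Adrb3 -0.22 ± 0.67 and Prkar2b 0.05 ± 0.41. With the GC and length trend removed, the first 4 shrank to 0.30 for Mgll, 0.27 for Lipe, 0.15 for Npr1 and -0.20 for Pde3b. An opposite genotype effect in fat and liver was therefore not shown for any of them.

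**Figure D5:**
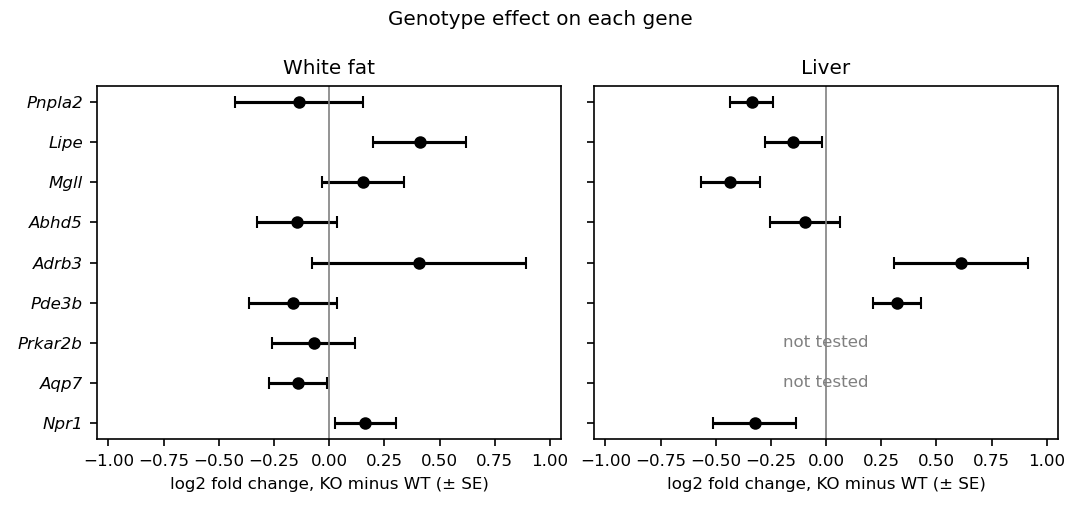
Log2 fold change of each gene, KO minus WT, with SE, in white fat (left) and liver (right), each from the fit of that tissue. In fat the values run from -0.16 for Pde3b to 0.41 for Lipe, and in liver from -0.43 for Mgll to 0.61 for Adrb3; Prkar2b and Aqp7 were not tested in liver.

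The wider pathway was read from 9 lists holding 96 other genes, of which 95 had a row in the table. By the quasi-likelihood test none passed the adjusted threshold for genotype: 0 of 86 tested in fat, 0 of 73 in liver and 0 of 88 for the difference between the tissues. At an unadjusted p under 0.05 there were 5 in fat, 11 in liver and 11 for the difference, beside the shares of all genes of 7.64%, 12.2% and 13.4%. Limma voom also called 0 in each, against 0% of all genes in fat, 0.0222% in liver and 0% for the difference. DESeq2 called Gpd1 and Pnpla3 in fat, where it called 0.27% of all genes, G0s2, Gpd1, Plin2 and Plin5 in liver (1.03%), and G0s2 and Gpd1 for the difference (1.18%). Without a filter on low counts, 2 of 94 were called in fat (0.102% of all genes), 7 of 91 in liver (1.51%) and 1 of 94 for the difference (0.0688%). Without the 2 fat libraries highest in Alb, 4 of 88 were called for the difference, Ces1g, Gpd1, Lipc and Plin5, near the share of all genes, 4.16%. Values below are log2 fold changes, KO minus WT, with SE, for the 2 genes of each list with the smallest p in each tissue.

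Of the lipase cofactors and droplet proteins, 7 of 7 tested had a negative fold change in liver and 6 of 8 a positive one in fat, with medians of -0.72 and 0.21, and none passed by the quasi-likelihood test. Over all genes, 6779 of 13529 were negative in liver and 7889 of 15919 positive in fat. Genes of a list may vary together, and their signs were not tested as a set. In liver the droplet coat gene Plin2 had 642, 532 and 630 CPM in KO liver and 980, 890 and 822 CPM in WT liver, at -0.55 ± 0.11 (adjusted p = 0.0718). Plin5, which tethers Abhd5 and Pnpla2 at the droplet of oxidative cells, had -0.84 ± 0.21 (adjusted p = 0.241) there. G0s2, the protein inhibitor of Pnpla2, had 182, 95.5 and 137 CPM in KO liver and 300, 251 and 215 CPM in WT liver, at -0.86 ± 0.24 (adjusted p = 0.279). Of the genes of this list with values given, groups did not overlap for Plin2, Plin5 and G0s2 in liver or for G0s2 in fat. Over all genes tested, 18.8% in liver and 14.9% in fat had groups that did not overlap. In fat, G0s2 had 149, 149 and 167 CPM in KO and 124, 144 and 124 CPM in WT libraries, at 0.27 ± 0.12 (adjusted p = 0.654), and Cidec, which enlarges droplets, 0.15 ± 0.22. Cidec had -0.72 ± 0.62 in liver. The difference between the tissues was 1.11 ± 0.27 for G0s2 (adjusted p = 0.214).

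Among other neutral lipid lipases, Pnpla3, the Pnpla2 relative linked to fatty liver in humans, had 215, 239 and 204 CPM in KO fat and 93.1, 146 and 136 CPM in WT fat, at 0.83 ± 0.18 (adjusted p = 0.601). Abhd6 had 0.15 ± 0.15 in fat. In liver, Lpl, the lipase of circulating lipoproteins, had 0.77 ± 0.21 (adjusted p = 0.21) and Ddhd2 -0.42 ± 0.13 (adjusted p = 0.267). In the glycerol list, Gpd1, which links glycerol phosphate to glycolysis, had 731, 850.5 and 878 CPM in KO fat and 295, 486 and 484 CPM in WT fat, at 0.98 ± 0.22 (adjusted p = 0.601). The same gene had 318, 275 and 261 CPM in KO liver and 395, 387 and 424 CPM in WT liver, at -0.47 ± 0.10 (adjusted p = 0.113). Groups did not overlap for Pnpla3, Abhd6 and Gpd1 in fat or for Lpl, Ddhd2 and Gpd1 in liver. Over all genes tested that share was 14.9% in fat and 18.8% in liver, and these genes were picked by a small p. Aqp11, a relative of Aqp7, had 0.55 ± 0.29 in fat and 0.06 ± 0.10 in liver.

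The signalling lists came next. Of the adrenergic receptors and G proteins, 0 of 13 in fat and 0 of 11 in liver had an unadjusted p under 0.05. The smallest p belonged in fat to Gnai3, an inhibitory G protein, at -0.24 ± 0.13 and Adra1b at 0.59 ± 0.34, and in liver to Arrb2 at -0.37 ± 0.19 and Grk2 at -0.23 ± 0.12, both of which act in switching receptors off. Adrb1 had 0.58 ± 0.43 in fat. Of the adenylate cyclases, which make cAMP, Adcy6 had 0.35 ± 0.17 in fat and -0.30 ± 0.14 in liver, and Adcy7 -0.77 ± 0.31 in liver. Adcy8 had 11, 104 and 6 counts in KO fat and 4, 2 and 13 counts in WT fat, so its 2.66 ± 1.25 rested on KO replicate 2 and was 0.42 without it. Among kinase subunits and anchors, Akap11 had -0.31 ± 0.11 and the catalytic subunit Prkaca 0.31 ± 0.14 in fat, and Akap1 -0.20 ± 0.09 and Akap10 0.24 ± 0.16 in liver. Of the phosphodiesterases tested in fat, 11 of 13 had a negative fold change, against 8030 of 15919 over all genes, with a median of -0.25. These signs were not tested as a set either. The smallest p belonged to Pde4b at -0.69 ± 0.26 and Pde8b at -0.65 ± 0.45. Pde4a had -0.58 ± 0.27 and Pde7b 0.38 ± 0.24 in liver. None of these passed the adjusted threshold by the quasi-likelihood test. Groups did not overlap for Akap11 and Gnai3 in fat or for Akap1, Grk2, Arrb2 and Adcy7 in liver. Over all genes tested that share was 14.9% in fat and 18.8% in liver, and these genes too were picked by a small p.

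Of the antilipolytic and insulin list, Ptger3, a prostaglandin E receptor that couples to inhibitory G proteins, had 0.76 ± 0.33 in fat, and Irs2 -0.57 ± 0.24 and Insr 0.17 ± 0.09 in liver. Pdk1, which stood in that list, encodes a pyruvate dehydrogenase kinase and not the insulin-signal kinase of the same abbreviation; it had 0.27 ± 0.12 in fat. In the natriuretic list Npr2 had 0.19 ± 0.16 and Prkg1 -0.33 ± 0.28 in fat, and Corin -1.59 ± 0.55 and the clearance receptor Npr3 -0.57 ± 0.37 in liver. Of the genes of these lists with values given, groups did not overlap for Ptger3, Pdk1 and Prkg1 in fat. In liver they did not overlap for Insr, Corin and Npr3. The shares over all genes were 14.9% in fat and 18.8% in liver. The ratio of Npr1 to Npr3 in RPKM was 0.135 ± 0.00998 in KO fat and 0.131 ± 0.0502 in WT fat, against 16.6 ± 6.73 in KO liver and 13.8 ± 3.11 in WT liver (SD, n = 3 each). Within fat the clearance receptor was the more abundant of the pair, and within liver Npr1 was, although both genes had higher CPM in fat than in liver. Between the tissues, 47 of 88 list genes were called higher and 26 lower in fat than in liver in KO mice, and 47 higher and 27 lower in WT mice. Of all genes tested, 36.4% were called higher and 32% lower in KO mice, and 38.4% higher and 32.4% lower in WT mice. The median log2 difference of the list genes was 0.80 in KO and 0.64 in WT mice, against 3.46 and 3.27 for the 9 genes and 0.08 and 0.12 for all genes.

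The genes whose profile over the 12 libraries lay closest to each of the 9 were found by the root mean square difference in log2 CPM, each gene centred on its own mean, among 14293 protein-coding genes tested. The tissue contrast makes up most of each profile, so closeness here largely means a like difference between fat and liver. Aqp7 lay closest to Slc7a10, an amino acid transporter of white adipocytes, at 0.21, then to Lgals12, a galectin of the lipid droplet, also at 0.21, and Ankef1 at 0.24. Prkar2b lay closest to Tmem182, Tshr, the thyrotropin receptor, and Npr3, at 0.33 to 0.38. Adrb3 had the most distant neighbours, among them Syn2 and Hoxc5, at 0.41 to 0.42. Those of Pnpla2 were Sox18, Calca and Dlc1 (0.21 to 0.22), those of Lipe were Vsir, Slc25a4 and Hoxd9 (0.18 to 0.21), and those of Mgll were Adamts10, G6pc3 and Dusp3 (0.14 to 0.17). Abhd5 lay closest to Cd24a, Cited2 and Glt8d1 (0.16 to 0.17), Pde3b to Fnbp1, Lrch3 and Srpk2 (0.16 to 0.17), and Npr1 to Ybx3, Nuak1 and Aqp1 (0.13 to 0.17).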

How the data were processed

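The authors deposited raw read counts per Ensembl gene, 1 column per sample, for 12 libraries of directional RNA-seq made from total RNA, per the labels' protocols. CASAVA 1.8 and HISAT2 and the builds GRCm38 and mm10 are named per the submitters' processing notes; the sources used here do not give a counting program, a strand setting or an annotation version. Of 54532 gene IDs, 54409 were found in GENCODE M21 (GRCm38), 53499 at the same start and end.

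Genotype was tested within each tissue by edgeR 4.0.16 under R 4.3.3, with filterByExpr, TMM scaling, robust quasi-likelihood and Benjamini-Hochberg adjustment over all genes tested, and tissue differences and the difference of genotype effects in a fit of all 12 libraries. Fold changes are log2 with their SE. At these depths 3 counts in a library equal 0.188 to 0.206 CPM. Pairs of libraries within a group had a chi-square of 9.83 to 77.0 for each degree of freedom, above sampling noise, and each library was counted as 1 sample. On simulated counts with 200 genes changed 2-fold, 91.5% were recovered in liver (13194 genes), 48.5% in fat (15510 genes) and 20% for the difference (16426 genes). False calls numbered 14 in liver, 11 in fat and 3 for the difference.

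The 9 genes, the lists and the rule for named genes (every gene of the 9, Plin1, G0s2, Cidec and Adrb1, list genes past the threshold, the 2 smallest p per list and tissue, and 3 nearest profiles per gene) were chosen with earlier results of these data known. Prkar1a, Npr3, Adipoq, Alb and Gm45470 are named beside results that turn on them. Some items that the rules take are not reported here. Alternatives used DESeq2 1.42.0, limma voom 3.58.1, other scaling and filters, a replicate block, removal of GC and length trends, and left-out libraries.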

Additional observations from a re-analysis of the deposited data

How the results depend on the processing

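All 9 genes were called higher in fat than in liver under each of 23 alternatives in both genotypes, including library totals without scaling factors and, for the tissue differences, leaving out the 2 fat libraries with most Alb, both chosen after seeing the data. Where low counts were filtered, Aqp7 and Prkar2b passed only through fat, so their calls carry no separate weight. In liver, the count of all genes called, 21, became 378 without a filter, 139 with DESeq2, 3 with limma voom, 3 without the robust step, 4 with the GC and length trend removed and 1 in a fit of all 4 groups, and 5 to 34 with 1 library left out (8 without KO replicate 1, 34 without KO replicate 3, 12, 8 and 5 without WT replicates 1, 2 and 3); the cause was not tested. Without a filter, 1 of the 8 genes tested was called there, Mgll, against 1.51% of all genes. In fat, the count of 0 became 29 without a filter, 43 with DESeq2, 3 in a fit of all 4 groups and 0 to 1 with 1 library left out (1 without WT replicate 2). For the difference between the tissues, the count of 0 became 21 without a filter, 199 with DESeq2, 713 without the 2 fat libraries highest in Alb and 0 to 34 with 1 library left out (25 without KO fat replicate 1, 34 without WT fat replicate 1, 1 without WT liver replicate 1). In these settings 0 of the 9 genes were called in fat or for the difference, where the test of Aqp7 was empty.

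Signs that turned belonged to values under the threshold. With the GC and length trend removed, the fat values were -0.015 for Mgll, 0.001 for Pde3b, 0.042 for Prkar2b and -0.027 for Npr1, and the differences between tissues -0.155 for Pnpla2 and 0.089 for Abhd5. Without the 2 libraries highest in Alb, Pnpla2 had 0.252 in fat, and the differences were 0.09 for Abhd5, 0.241 for Adrb3 and -0.087 for Prkar2b. With 1 library left out, values ran in fat from -0.009 to 0.724 for Adrb3, -0.389 to 0.113 for Pnpla2, -0.264 to 0.001 for Abhd5 and -0.257 to 0.045 for Prkar2b; in liver from -0.299 to 0.038 for Abhd5; and for the difference from -0.197 to 0.144 for Abhd5, -0.606 to 0.154 for Adrb3, -0.303 to 0.464 for Prkar2b and -0.039 to 0.496 for Pnpla2. The Adrb3 value in fat was -0.009 without KO replicate 2 and 0.056 without WT replicate 3.

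With the replicate block, 28 genes were called in liver and 0 in fat or for the difference, and of the 9 genes 0, 0 and 0, so the block changed no call on them. Same-numbered KO and WT libraries had correlations of their deviations from group means of 0.061, 0.16 and 0.066 in fat and -0.062, -0.067 and 0.082 in liver. Same-numbered liver and fat libraries had -0.015, 0.028 and 0.007 in KO and 0.055, 0.01 and 0 in WT mice. Not every library correlated best with its own number. With 3 libraries per group, these values cannot tell whether same-numbered samples share an animal or a batch, and the labels do not say. With 3 libraries per group, the simulated recovery of 2-fold changes limits what fat and the difference between tissues could show. Changes under 2-fold, such as those of the 9 genes in liver, were not simulated, so the recovery in liver does not speak to them.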
